A study of Homo sapiens with 6 samples.

Results

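The genes described here encode the machinery of mitosis: the kinases and cyclins that start it, the motors and kinetochore proteins that move chromosomes, the checkpoint that delays their separation, and the factors that compact chromosomes and divide the cell. They are 46 genes chosen by symbol, and all 46 were found once each among the 60675 rows of the deposited table and passed the filter on low counts. RNA was sequenced from HCT116, an established human colorectal carcinoma line, with 2 libraries in each of 3 groups. The untreated libraries and the SP2509 libraries carry a wild-type label, and the SP2509 cells received 3 uM of that compound for 48 h. SP2509 is known as an inhibitor of LSD1, the histone demethylase encoded by KDM1A. The siPIR libraries come from cells transfected for 48 h with small interfering RNA against PIR, the gene of the nuclear protein Pirin, and their treatment label also names SP2509, so whether they received the compound is not settled by the labels. The treatment protocol names DMSO as well, without saying whether the untreated cells received it. No library analysed here is labelled as a control transfection, so the loss of Pirin and transfection itself cannot be told apart. The labels do not say that the 2 libraries of a group came from separate cultures, so p-values measure only the spread between these libraries, which may be technical. The sample descriptions also carry a number that the labels do not explain: 11 and 12 for the untreated and for the SP2509 libraries, 10 and 11 for the siPIR libraries.

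Entry into mitosis is driven by CDK1 bound to cyclin B, and exit by the anaphase-promoting complex (APC/C), a ubiquitin ligase that has cyclin B and securin destroyed once the spindle checkpoint is satisfied. Most genes of this machinery are transcribed late in the cell cycle. Their promoters are known for CCAAT boxes, bound by NF-Y, and for the cell cycle genes homology region (CHR, with letters TTTGAA or TTCGAA), through which the DREAM complex represses them in resting or p53-activated cells and the MYBL2-MuvB and FOXM1 factors activate them in proliferating cells. In bulk RNA, fewer cells in G2 and mitosis and less RNA per cell cannot be told apart.

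The promoters below are shown because they carry those letters in members that fell in SP2509 cells and in members that did not pass the test there. Each is a stretch upstream of the RefSeq start (GRCh38.p14, gene strand, 5′ to 3′), without bases that GENCODE 29 annotates as exon. Capitals mark CCAAT or CHR letters on either strand, read as ATTGG and TTCAAA on the opposite one. The windows are chr2:168890446-168890528 (minus strand), chr10:92593050-92593129 (plus), chr10:128126424-128126533 (minus), chr1:214603085-214603194 (plus), chr1:43358855-43358954 (plus) and chrX:70290000-70290089 (plus).
SPC25: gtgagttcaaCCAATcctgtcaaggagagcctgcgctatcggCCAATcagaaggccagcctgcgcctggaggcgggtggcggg
KIF11: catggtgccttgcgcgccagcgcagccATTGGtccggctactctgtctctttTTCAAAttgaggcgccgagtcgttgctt
MKI67: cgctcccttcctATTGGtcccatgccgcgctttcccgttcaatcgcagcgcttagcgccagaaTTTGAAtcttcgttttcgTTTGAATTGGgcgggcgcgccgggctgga
CENPF: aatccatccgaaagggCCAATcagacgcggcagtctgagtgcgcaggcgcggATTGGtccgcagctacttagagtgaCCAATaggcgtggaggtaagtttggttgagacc
CDC20: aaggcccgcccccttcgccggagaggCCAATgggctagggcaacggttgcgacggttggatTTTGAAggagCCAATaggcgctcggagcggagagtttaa
KIF4A: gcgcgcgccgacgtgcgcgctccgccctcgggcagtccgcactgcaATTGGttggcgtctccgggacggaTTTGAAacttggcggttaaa
The SPC25 stretch holds 2 CCAAT boxes, the KIF11 stretch 1 CCAAT box and 1 CHR, the MKI67 stretch 2 of each with the second pair overlapping, and the CENPF stretch 3 CCAAT boxes. These 4 genes fell in SP2509 cells. The CDC20 stretch holds 2 CCAAT boxes and 1 CHR and the KIF4A stretch 1 of each, and neither gene passed the test in SP2509 cells. KIF4A missed it narrowly (edgeR adjusted p = 0.0567) and was lower under upper-quartile and total-count scaling. Bases from 250 before to 50 after the start that are not shown hold further letters. These are CHR letters for SPC25, CENPF and CDC20, and CCAAT for CENPF. RefSeq windows of 300 bases (250 before to 50 after a start) were found for 39 members, 51 windows in all. Not matched were AURKA, BUB3, TTK, UBE2C, TPX2, BIRC5 and FOXM1. CHR letters were in 66.7% of the member windows and 16.4% of all 35116 windows, CCAAT in 66.7% and 34.6%, and both together in 49.0% and 6.38%. Of the 31 members with CHR letters in a window, 23 were lower in SP2509 cells (median log2 fold change -0.70), and of the 8 without them 8 were lower (median -0.53), where 35.1% of all genes tested were lower. A match of letters is a description of the window and not a binding site.

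The libraries held between 22622441 and 28816590 counts, and members had between 80 counts (AURKB in a siPIR library) and 18235. Levels are given as CPM, counts scaled to the library total after TMM normalization. The knockdown target PIR stood at 1.93 and 2.03 CPM in siPIR libraries, against 14.4 and 14.6 without treatment and 14.8 and 11.8 with SP2509. Markers of epithelium (7 genes) summed to 1330.1 to 1344 CPM in siPIR libraries, 3763 to 3823 without treatment and 4846 to 4942 with SP2509. Of these, 6 had more than 3 counts in siPIR libraries and 7 in the others, and none was at 0. Summed markers of fibroblasts reached at most 25.7 CPM (1.78 to 2.13 in siPIR libraries), of leukocytes 4.79 and of endothelium 1.83, with between 1 and 3 genes of each list at 0 per group. Their part in the results was not tested. The siPIR libraries stood apart from the other 4 in base composition. The GC content of transcripts weighted by counts was 42.3% and 42.8% in siPIR libraries and between 48.3% and 48.7% in the others. PIR has 51.4% GC, and all genes tested between 50% and 55% GC had a median siPIR log2 fold change of -1.18 against untreated cells. The epithelial markers had a median of -2.87 there, and of -0.55 in the fit corrected for GC content and length described further on. How much of either fall follows GC content was not tested. Mitochondrial ribosomal RNA took 6.33% and 6.93% of counts in SP2509 libraries and between 1.14% and 1.63% in the rest.

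In untreated cells the members differed widely in level per kilobase of longest transcript. CDC20, the APC/C activator of early anaphase, was highest at 69 CPM per kb, followed by cyclin B1 (CCNB1) at 63.8, the spindle factor TPX2 at 48.4 and the ubiquitin-conjugating enzyme UBE2C at 46.5. CENPE, the kinetochore kinesin, was lowest at 2.99, below KIF15 at 3.56 and CDC25C at 4.5. These levels use annotated lengths and were not tested against each other.

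**Figure D1:**
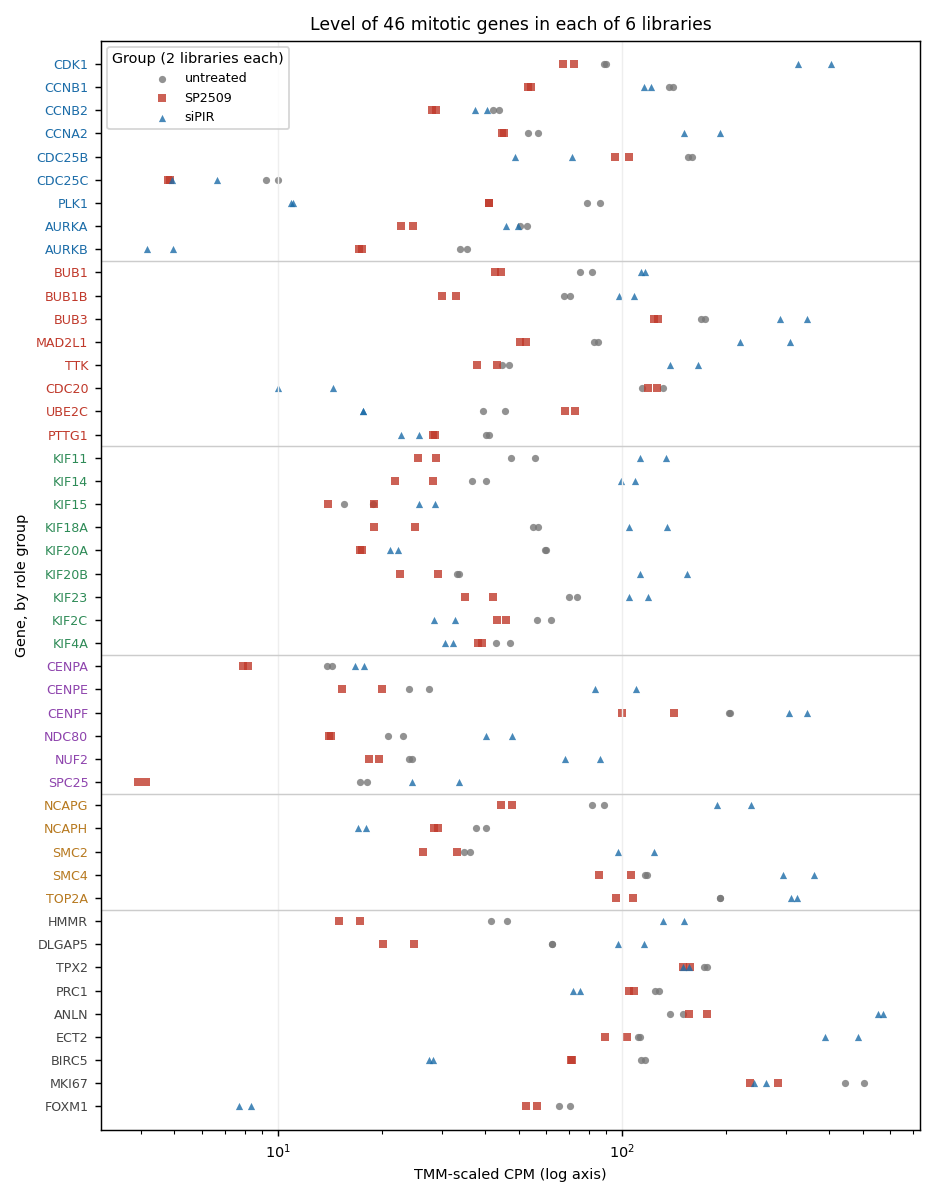
TMM-scaled CPM (log axis) of 46 mitotic genes in the 6 libraries, grouped by role; each symbol is 1 library (grey circles untreated, red squares SP2509, blue triangles siPIR). SP2509 values lie left of the untreated ones for most genes, with UBE2C to the right, while siPIR values lie to the right for genes such as CDK1 and to the left for genes such as PLK1.

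The first comparison asked what SP2509 does to mitotic gene expression. Members fell in every role group: 35 of the 46 fell, 1 rose and 10 missed the threshold (adjusted p of 0.05), at a median log2 fold change of -0.63 against -0.04 over all 16503 genes tested. Of all genes tested 68.6% passed the test, 35.1% lower and 33.5% higher. The steepest falls were in SPC25, a subunit of the NDC80 kinetochore complex, and KIF20A, a kinesin of cytokinesis, and the 1 rise was in UBE2C. In 44 members, all but CDC20 and KIF15, the untreated and SP2509 libraries did not overlap, which held for 86.9% of all genes tested.

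Among kinases, cyclins and their phosphatases, 9 of 9 fell. Gene coordinates here and below are those of GENCODE 29 on GRCh38. CCNB1 (chromosome 5, 69167010 to 69178245, plus strand), which activates CDK1 at mitotic entry, was at 140.2 and 137 CPM in untreated and 54.3 and 53.2 CPM in SP2509 libraries. Both SP2509 libraries lay far below both untreated ones (log2 change -1.37 with SE 0.095 and edgeR adjusted p = 9.57e-08). Its partner CDK1 (chromosome 10, 60778331 to 60794852, plus strand) went from 88.7 and 89.7 to 72.6 and 67.4 CPM, a smaller change (log2 change -0.35 with SE 0.116 and edgeR adjusted p = 0.0169). AURKA, the centrosomal kinase that matures spindle poles, was at 52.8 and 50.6 CPM in untreated and 22.8 and 24.6 CPM in SP2509 libraries (log2 change -1.13 with SE 0.101 and edgeR adjusted p = 8.08e-07). CDC25B, which removes inhibitory phosphates from CDK1, went from 159 and 156 to 95.5 and 105 CPM (log2 change -0.66 with SE 0.141 and edgeR adjusted p = 0.00115). PLK1 (log2 fold change -1.01), AURKB, the kinase of the chromosomal passenger complex (-0.996), and CDC25C (-0.99) fell too, and cyclin A2 (CCNA2, -0.29) the least of the 9. Cyclin B2 (CCNB2) fell by 0.5996 on the log2 scale.

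The checkpoint and APC/C genes split. BUB1B, whose product BubR1 helps hold back the APC/C, was at 70.6 and 67.7 CPM in untreated and 33 and 29.9 in SP2509 libraries (log2 change -1.14 with SE 0.103 and edgeR adjusted p = 8.68e-07). The kinase gene BUB1 went from 81.6 and 75.3 to 42.9 and 44.6 CPM (log2 change -0.84 with SE 0.097 and edgeR adjusted p = 6.64e-06). MAD2L1, which encodes the MAD2 inhibitor of CDC20, went from 84.8 and 82.8 to 52.4 and 50.5 CPM (log2 change -0.703 with SE 0.137 and edgeR adjusted p = 0.000553). BUB3, their WD-repeat partner and the most abundant of the group, went from 175 and 169 to 124 and 127 CPM (log2 change -0.46 with SE 0.106 and edgeR adjusted p = 0.00205). Securin (PTTG1) fell as well (-0.52), so 5 of the 8 members fell. TTK, the kinase that starts checkpoint signalling, did not pass the test (-0.17, edgeR adjusted p = 0.206). UBE2C (chromosome 20, 45812576 to 45816957, plus strand), the enzyme that hands ubiquitin to the APC/C, rose from 45.5 and 39.5 to 68.3 and 73.1 CPM (log2 change 0.73 with SE 0.102 and edgeR adjusted p = 3.51e-05). CDC20 (chromosome 1, 43358955 to 43363203, plus strand) had 132 and 114 CPM in untreated and 119 and 126 in SP2509 libraries, which overlapped (log2 change -0.005 with SE 0.13 and edgeR adjusted p = 0.977). CDC20 and UBE2C were named after their values were seen in this comparison.

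Of 9 kinesins, 6 fell. KIF20A (chromosome 5, 138178719 to 138187715, plus strand) was at 60.3 and 59.7 CPM in untreated and 17.6 and 17.3 in SP2509 libraries, with replicates close together (log2 change -1.78 with SE 0.099 and edgeR adjusted p = 1.65e-08). KIF18A, which damps chromosome movement at the metaphase plate, went from 54.9 and 56.8 to 25.1 and 19 CPM (log2 change -1.34 with SE 0.147 and edgeR adjusted p = 4.52e-06). KIF11, the bipolar motor that pushes spindle poles apart, went from 56 and 47.6 to 28.9 and 25.6 CPM (log2 change -0.93 with SE 0.123 and edgeR adjusted p = 2.41e-05). KIF23, a centralspindlin motor of cytokinesis, went from 73.8 and 70.1 to 42.1 and 34.9 CPM (log2 change -0.902 with SE 0.114 and edgeR adjusted p = 1.59e-05). KIF14 and the depolymerase KIF2C also fell (-0.62 and -0.41). KIF15, KIF20B and the chromokinesin KIF4A did not pass the test (-0.06, -0.37 and -0.22). KIF15, which can stand in for KIF11 in the spindle, had 18.8 and 15.6 CPM in untreated and 19 and 14 in SP2509 libraries, and these overlapped.

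All 6 kinetochore genes fell, unevenly. SPC25 (chromosome 2, 168834132 to 168913371, minus strand) was at 18.1 and 17.3 CPM in untreated and 3.93 and 4.15 CPM in SP2509 libraries, the largest fall among the 46 members (log2 change -2.13 with SE 0.164 and edgeR adjusted p = 2.26e-07). Its partners in the NDC80 complex, the microtubule coupler of the kinetochore, fell less: NDC80 by 0.63 (SE 0.119) and NUF2 by 0.36 (SE 0.124) on the log2 scale. CENPA, the centromeric histone H3 variant, went from 13.9 and 14.3 to 7.9 and 8.19 CPM (log2 change -0.81 with SE 0.115 and edgeR adjusted p = 4.19e-05). CENPF, a large protein of the outer kinetochore, went from 204 and 206 to 142 and 99.97 CPM (log2 change -0.76 with SE 0.141 and edgeR adjusted p = 0.000368). CENPE went from 24 and 27.5 to 20.03 and 15.4 CPM (log2 change -0.54 with SE 0.155 and edgeR adjusted p = 0.00772). The 2 SP2509 libraries were further apart for CENPF and CENPE than for SPC25 and CENPA.

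In the condensin group 3 of 5 fell. TOP2A, the topoisomerase that untangles sister chromatids, was at 192 and 193 CPM in untreated and 107 and 95.8 in SP2509 libraries (log2 change -0.92 with SE 0.099 and edgeR adjusted p = 3.69e-06). NCAPG, a condensin I subunit, went from 88.3 and 82 to 47.9 and 44.5 CPM (log2 change -0.88 with SE 0.12 and edgeR adjusted p = 2.87e-05), and NCAPH, the kleisin of that complex, fell by 0.44. The ATPase subunits shared by both condensins did not pass the test. SMC4 had 117 and 118 CPM in untreated and 106 and 85.8 in SP2509 libraries (log2 change -0.29 with SE 0.126 and edgeR adjusted p = 0.056), and SMC2 had a log2 fold change of -0.25 (edgeR adjusted p = 0.122).

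Among the 9 remaining genes of spindle, cytokinesis and proliferation, 6 fell. DLGAP5, a spindle fibre stabiliser, went from 62.7 and 62.4 to 24.9 and 20.1 CPM (log2 change -1.47 with SE 0.125 and edgeR adjusted p = 4.81e-07). HMMR, a spindle pole protein also known as a hyaluronan receptor, went from 46.2 and 41.6 to 17.3 and 15.1 CPM (log2 change -1.44 with SE 0.119 and edgeR adjusted p = 3.88e-07). MKI67, the gene of the Ki-67 proliferation antigen, went from 504 and 444 to 284 and 235 CPM (log2 change -0.87 with SE 0.116 and edgeR adjusted p = 2.45e-05). Survivin (BIRC5, -0.69), the mitotic transcription factor FOXM1 (-0.32) and the midzone bundler PRC1 (-0.25) fell less. ANLN, the anillin scaffold of the cleavage furrow, had 150.1 and 138 CPM in untreated and 176 and 157 in SP2509 libraries (log2 change 0.21 with SE 0.101 and edgeR adjusted p = 0.084), and its sign was negative under upper-quartile scaling (-0.025) and under total counts (-0.18). ECT2, the activator of RhoA in cytokinesis, and TPX2 did not pass the test (-0.22 and -0.18).

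**Figure D2:**
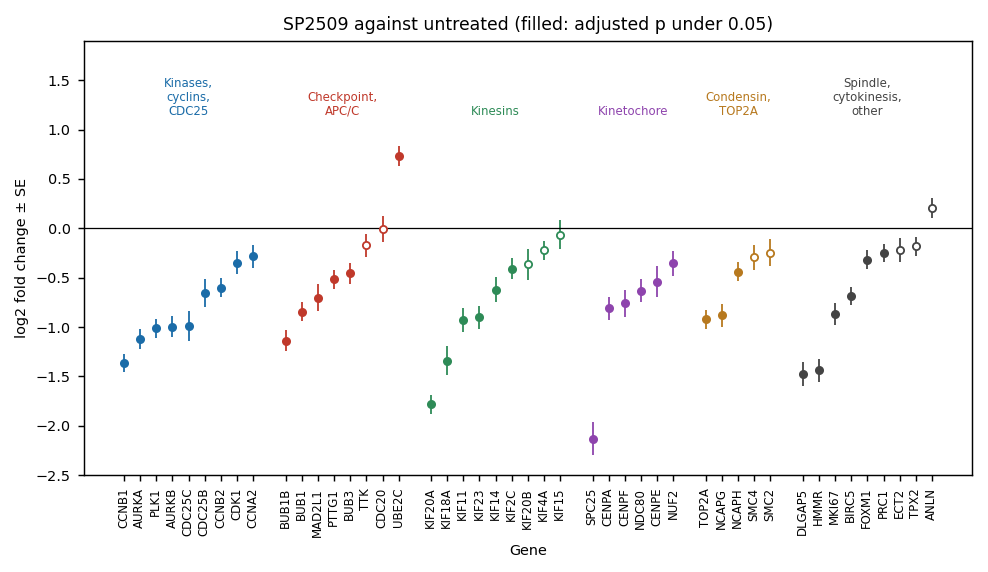
Log2 fold change (± SE) of each member in SP2509 against untreated cells, 2 libraries per group, by role group; filled symbols passed an edgeR adjusted p of 0.05 and open ones did not. SPC25 (-2.13) and KIF20A (-1.78) lie lowest and UBE2C (0.73) highest, with 35 filled symbols below 0.

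Under upper-quartile scaling 42 members fell, and under total counts 44, while the all-gene median shifted from -0.04 to -0.27 and -0.43. The median of the members was 0.59 below that of all genes. These scalings shift every gene by about the same amount, so they leave that distance nearly as it was by construction. Of the 35 falls, 28 remained in each of 6 fits without 1 library. CDK1, CCNA2, NUF2 and PRC1 lost the call without either untreated or either SP2509 library, KIF2C and FOXM1 without untreated replicate 1 or SP2509 replicate 2, and CENPE without untreated replicate 2 or SP2509 replicate 2 (edgeR adjusted p from 0.0578 to 0.269). With DESeq2 CCNA2, NUF2 and PRC1 lost it as well (adjusted p = 0.103, 0.0527 and 0.0624). Mitochondrial ribosomal RNA was also higher in both SP2509 libraries, and its part in these falls was not tested.

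The second comparison asked what knockdown of PIR does to the same genes. As counted, members moved both ways in siPIR cells: 27 rose, 16 fell and 3 missed the threshold, at a median log2 fold change of 0.65 against -0.28 over all genes. Of all genes tested 86.1% passed the test, 39.3% higher and 46.9% lower, and the groups did not overlap in 46 of 46 members and 93.1% of all genes. CDK1 and ANLN were among the steepest rises, and PLK1, AURKB and CDC20 among the steepest falls. The side a member took followed the GC content of its transcript: of 28 members below 45% GC, 26 rose and 1 fell, and of 18 members at 45% or above, 1 rose and 15 fell. The same trend ran through all genes tested, as described further on.

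CDK1 (37% GC) was at 88.7 and 89.7 CPM in untreated and 404 and 324 CPM in siPIR libraries (log2 change 2.03 with SE 0.118 and edgeR adjusted p = 2.12e-09). CCNB1 (43.2% GC) went from 140.2 and 137 to 121 and 116 CPM (log2 change -0.22 with SE 0.092 and edgeR adjusted p = 0.0376). PLK1 (57.1% GC), the polo-like kinase of mitotic entry, went from 86.5 and 78.9 to 11.1 and 10.9 CPM (log2 change -2.91 with SE 0.11 and edgeR adjusted p = 5.85e-11). These 3 kinases and cyclins, each without overlap between groups, rose, fell slightly and fell steeply. That order by GC content did not hold across the group: CDC25B changed less than PLK1, and AURKA less than CCNB1, each at a higher GC content. CDC25B (59.3% GC) went from 159 and 156 to 48.9 and 71.4 CPM (log2 change -1.39 with SE 0.145 and edgeR adjusted p = 8.85e-07). AURKA (46.6% GC) had 52.8 and 50.6 CPM in untreated and 46 and 49.99 in siPIR libraries (log2 change -0.11 with SE 0.098 and edgeR adjusted p = 0.316). AURKB (55.6% GC) went from 33.9 and 35.5 to 4.18 and 4.95 CPM, a log2 fold change of -2.93. In this group 2 of 9 rose and 5 fell.

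The checkpoint genes BUB1, BUB1B, BUB3, MAD2L1 and TTK rose, and CDC20, UBE2C and securin fell. MAD2L1 (39.4% GC) was at 84.8 and 82.8 CPM in untreated and 307 and 219.8 in siPIR libraries (log2 change 1.65 with SE 0.137 and edgeR adjusted p = 7.79e-08). BUB3 (41.4% GC) went from 175 and 169 to 345 and 288 CPM (log2 change 0.88 with SE 0.106 and edgeR adjusted p = 3.75e-06). BUB1 and BUB1B, at 42.5% and 43.2% GC, rose by 0.55 and 0.58, to 116 and 114 and to 108 and 98.2 CPM. Scaled by total counts, they stood at -0.067 and -0.041, and neither passed the test. CDC20 (57.9% GC) went from 132 and 114 to 10.03 and 14.5 CPM, the largest fall among members in siPIR cells (log2 change -3.32 with SE 0.153 and edgeR adjusted p = 2.63e-10). UBE2C went to 17.7 and 17.7 CPM (-1.27), in the direction opposite to its rise in SP2509 cells.

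Among kinesins 6 of 9 rose. KIF11 reached 134 and 113 CPM (log2 change 1.25 with SE 0.119 and edgeR adjusted p = 3.54e-07), KIF18A 135 and 104 CPM (log2 fold change 1.1) and KIF23 119 and 105 CPM (0.63). KIF20A (48.4% GC) went to 21.1 and 22.3 CPM (log2 change -1.47 with SE 0.099 and edgeR adjusted p = 9.57e-09), below both untreated libraries and above both SP2509 ones. All 6 kinetochore genes rose, CENPE to 109.6 and 83.4 CPM (1.9), CENPF to 345 and 305 CPM (0.67), SPC25 to 33.5 and 24.6 CPM (0.71) and CENPA to 17.8 and 16.7 CPM (0.29). The rise of CENPA turned to -0.33 when scaled by total counts and was lost without untreated replicate 1, untreated replicate 2 or siPIR replicate 1 (edgeR adjusted p = 0.156, 0.119 and 0.0605). It was also lost under upper-quartile scaling (0.11, edgeR adjusted p = 0.351) and without the filter on low counts (0.21, edgeR adjusted p = 0.207). With the description number as a block the change of CENPA was 0.27. The number 10 belongs to siPIR replicate 1 alone, so that block takes this library out of the comparison and is no separate check. That of CENPF was lost without siPIR replicate 1 (edgeR adjusted p = 0.0598) and when scaled by total counts (0.046). Total counts also ended the rises of KIF23 (0.015, edgeR adjusted p = 0.904), KIF15 (0.037, edgeR adjusted p = 0.813) and SPC25 (0.091, edgeR adjusted p = 0.506).

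Condensin subunits moved in both directions. SMC4 (37.3% GC) went to 360.1 and 292 CPM (1.47) and NCAPG (39% GC) to 236 and 188 CPM (1.32), while NCAPH (47.6% GC) fell from 40.3 and 37.7 to 18 and 17.1 CPM (-1.15). TOP2A went to 322 and 309 CPM (log2 change 0.71 with SE 0.098 and edgeR adjusted p = 1.29e-05). In the last group ANLN reached 573 and 554 CPM (log2 change 1.97 with SE 0.104 and edgeR adjusted p = 8.81e-10) and HMMR 151 and 132 CPM (1.69), and DLGAP5 went to 115 and 97 CPM (0.76). Scaled by total counts, TOP2A (0.096, edgeR adjusted p = 0.378) and DLGAP5 (0.14, edgeR adjusted p = 0.256) did not pass the test. MKI67 (48.3% GC) was at 241 and 261 CPM against 504 and 444 in untreated libraries (log2 change -0.92 with SE 0.116 and edgeR adjusted p = 5.99e-06). FOXM1 (55.6% GC) went from 70.6 and 65.4 to 7.73 and 8.33 CPM (log2 change -3.08 with SE 0.117 and edgeR adjusted p = 6.30e-11) and BIRC5 (52.2% GC) from 117 and 113 to 28.2 and 27.4 CPM (-2.05).

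Across the 46 members, the siPIR log2 fold change and transcript GC content had a Spearman correlation of -0.927 (Pearson -0.940), against 0.025 (Pearson 0.095) for SP2509. Members share the libraries and are not independent points. Over 16345 genes with an annotated transcript the same correlation was -0.883 for siPIR and -0.089 for SP2509. Between 35% and 40% GC the 14 members had a median siPIR change of 1.56 and all 2217 genes 1.86, and between 45% and 50% GC the 10 members had -0.74 and all 2888 genes 0.064. Between 40% and 45% GC the medians were 0.67 for 13 members and 1.08 for 3451 genes. In 37 of the 46 members the siPIR change was below the median of all genes in the same interval of GC content. In SP2509 cells the members' median lay between -0.66 and -0.63 in each of these 3 intervals, with all genes between 0.048 and 0.071. In the other intervals members were fewer. Below 35% GC 1 member was at -0.37 (all genes -0.15). Between 50% and 55% GC 3 members had a median of -0.41 (all genes -0.06). Between 55% and 60% GC 5 members had a median of -0.66 (all genes -0.16).

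**Figure D3:**
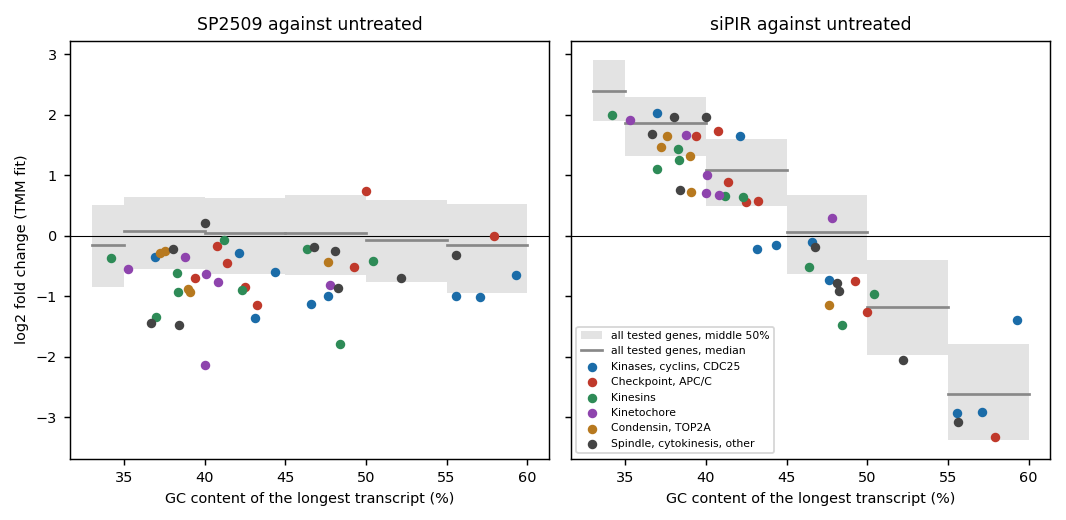
Log2 fold change (TMM fit) of each member against the GC content of its longest transcript, for SP2509 (left) and siPIR (right) against untreated cells; points are members coloured by role, grey lines and bands the median and middle 50% of all tested genes in intervals of GC content. In siPIR cells the members follow the falling grey steps (Spearman -0.927), and in SP2509 cells they lie mostly below flat steps.

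A fit with a GC-length offset was therefore set beside the counts as scaled. The offset corrects each library for its smooth trend with transcript GC content and length. It is estimated from the same libraries, so it also takes out biological differences that follow these properties. The fit then treats it as known, so the SEs and p-values under the offset leave out its own uncertainty. The trend was reduced and not abolished: with the offset the Spearman correlation of the siPIR change with GC content was -0.182 over 16345 genes and -0.372 over the 46 members. With the offset 36 of the 46 members fell in siPIR cells, 7 rose and 3 did not pass the test (median -0.40 against -0.039 over all genes), where 65.0% of all genes passed the test, 32.2% lower and 32.8% higher. CCNB1 was at -1.02 (SE 0.071, edgeR adjusted p = 2.25e-11), KIF20A at -1.23, FOXM1 at -1.12, NCAPH at -1.06, BIRC5 at -0.996, AURKB at -0.97 and CDC20 at -0.71. TOP2A and DLGAP5, higher as scaled, were lower with the offset (-0.8995 and -0.87). The 7 that rose were CDC25B (1.58), CCNA2 (0.63), ANLN (0.53), TTK (0.45), CENPA (0.41), ECT2 (0.23) and CDK1 (0.21). MAD2L1, NUF2 and HMMR missed the threshold.

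**Figure D4:**
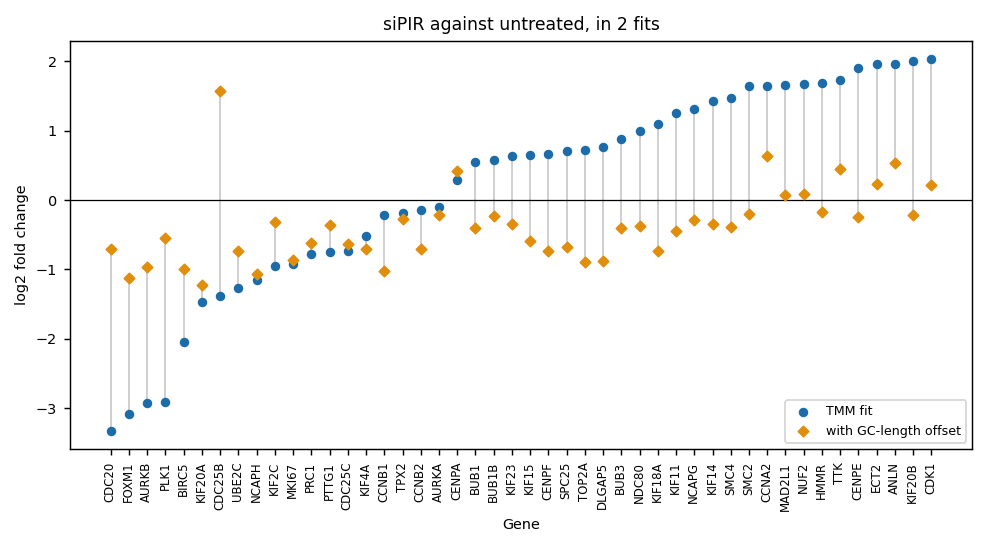
Log2 fold change of each member in siPIR against untreated cells, ordered by the TMM fit (blue circles), with the value after the GC-length offset (orange diamonds) joined by a line. Most members right of CENPA move from above to below 0, CDK1 and ANLN stay above it, CDC25B moves from -1.39 to 1.58, and KIF20A, NCAPH and MKI67 stay below 0 in both fits.

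In SP2509 cells 40 members fell and 2 rose under the offset (median -0.57), where 73.1% of all genes passed the test, 34.6% lower and 38.5% higher. ANLN passed the test there at 0.17 and FOXM1 no longer did (-0.17, edgeR adjusted p = 0.0561). TTK, KIF20B, KIF4A, SMC2, SMC4 and ECT2, which missed the threshold as scaled, passed it as lower under the offset. Both comparisons share the untreated libraries, so their values are not independent. In siPIR cells rises made up 62.8% of the members' calls under TMM, 57.8% under upper-quartile scaling (26 rises, 19 falls) and 47.4% under total counts (18 rises, 20 falls), while the all-gene median shifted from -0.28 to -0.45 and -0.89. CCNB1 lost its call without any single library other than siPIR replicate 1 (edgeR adjusted p from 0.0653 to 0.168), and with DESeq2 (adjusted p = 0.508).

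The direct comparison of siPIR with SP2509 cells tested where the 2 states differ. As scaled, 31 members were higher in siPIR cells and 11 lower (median 1.41 against -0.23 over all genes, of which 84.3% passed the test, 38.8% higher and 45.5% lower). The groups did not overlap in 44 members, all but TPX2 and MKI67, and in 91.8% of all genes. HMMR stood highest, at 151 and 132 CPM in siPIR and 17.3 and 15.1 in SP2509 libraries (log2 change 3.13 with SE 0.122 and edgeR adjusted p = 6.16e-11). SPC25 (log2 change 2.84 with SE 0.164 and edgeR adjusted p = 2.10e-09) and CENPE (log2 change 2.45 with SE 0.156 and edgeR adjusted p = 5.56e-09) followed. CDC20 (log2 change -3.32 with SE 0.154 and edgeR adjusted p = 2.63e-10), FOXM1 (log2 change -2.76 with SE 0.118 and edgeR adjusted p = 1.29e-10) and UBE2C (log2 change -1.9997 with SE 0.112 and edgeR adjusted p = 1.51e-09) were lowest. Under the offset 25 members stood higher and 8 lower (median 0.31), and 69.6% of all genes passed the test, 32.6% higher and 37.0% lower. HMMR, SPC25 and CENPE were then at 1.22, 1.52 and 0.28, and CDC20, FOXM1 and UBE2C at -0.86, -0.95 and -1.45. Some members turned sign and passed the test in both fits. CDC25B went from -0.73 as scaled to 2.03, the highest member value under the offset. PLK1 went from -1.90 to 0.31 and KIF15 from 0.72 to -0.48. The offset ended 9 calls, those of CCNB2, AURKB, BUB3, KIF20B, KIF2C, CENPF, SMC2, SMC4 and TOP2A. KIF20A (0.32 as scaled) lost its call without either SP2509 library (edgeR adjusted p = 0.0808 and 0.0851), as did KIF4A (-0.30, edgeR adjusted p = 0.0751 and 0.0582). KIF20A also lost it under total counts (edgeR adjusted p = 0.469), together with CCNB2 (edgeR adjusted p = 0.0668), and KIF4A with DESeq2 (adjusted p = 0.206).

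Other genes of cell division, 141 in 7 lists, moved both ways in SP2509 cells: of 140 tested, 56 fell and 43 rose (median -0.11). These counts and those of each list stand beside 35.1% lower and 33.5% higher over all genes tested. Kinetochore and passenger genes outside the members had 16 of 35 lower and 6 higher, with the centromere binder CENPB at -1.30 and SKA1, a subunit of the SKA microtubule coupler, at 1.56. Spindle and cytokinesis genes had 15 of 29 lower and 5 higher, with the spindle gene FAM83D at -1.39 and the plus-end binder CLASP2 at 1.55. APC/C, cohesin and separase genes had 13 of 27 higher and 6 lower, with the cohesin subunit STAG1 at 1.48 and the APC/C subunit CDC26 at 1.21. Entry regulators had 7 of 15 tested lower and 4 higher, with cyclin F (CCNF) at -1.48 and CKS1B, a small CDK-binding subunit, at 1.33. Of 4 other condensin subunits 2 fell, NCAPD2 (-0.95) and NCAPD3 (-0.72), and 1 rose. Tubulins had 4 of 10 lower and 3 higher, with TUBA1A at -1.80 and TUBB2A at 1.83, genes of near-identical families whose reads the counting could split.

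The list of DREAM and MYBL2-MuvB regulators had 11 of 20 higher and 6 lower in SP2509 cells (33.5% and 35.1% of all genes), with E2F5 at 1.33 and RBL2, the p130 pocket protein of DREAM, at -1.47. CDKN1A, the p21 inhibitor of cyclin-dependent kinases, stood at 342 and 426 CPM with SP2509, 132 and 125 without treatment and 81.3 and 103 with siPIR. Its SP2509 libraries were the highest of the 6 (log2 change 1.58 with SE 0.134 and edgeR adjusted p = 4.89e-07). The siPIR change of CDKN1A was -0.48 as scaled and 2.17 with the offset. MYBL2, the B-Myb activator of late cell cycle genes, had 50.9 and 46.2 CPM with SP2509, 60.9 and 53.2 without treatment and 2.66 and 3.23 with siPIR. It missed the threshold in SP2509 cells (log2 change -0.23 with SE 0.107 and edgeR adjusted p = 0.0697) and fell in siPIR cells (-4.27, and -0.97 with the offset). In siPIR cells the 140 genes had 67 higher and 59 lower as scaled, where 39.3% of all genes were higher and 46.9% lower. Under the offset 28 rose and 68 fell, at a median of -0.20, where 32.8% of all genes were higher and 32.2% lower.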

How the data were processed

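The authors deposited 1 table of estimated counts per Ensembl gene, of which 11.0% of values are not whole numbers, and these counts were rounded. The submitters' processing notes name edgeR 3.26.4, HISAT2, Subread 1.6.2 with featureCounts, Trimmomatic 0.32 and FastQC 0.11.8, and build GRCh38. No label states the annotation release, the strand setting or the rule for shared reads. Of the 46 members, 41 have values that are not whole, and 8 overlap another annotated gene on the same strand and 22 on the opposite strand, so their counts are uncertain to that extent.

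Genes were filtered by filterByExpr, scaled by TMM and fitted as 3 groups over 6 libraries with edgeR 4.0.16 (robust quasi-likelihood test, R 4.3.3). P-values were adjusted by Benjamini and Hochberg over 16503 genes, with a threshold of 0.05. Each SE was worked back from that test, as the absolute log2 fold change divided by the square root of the F statistic. The offset used natural splines of 5 degrees of freedom for GC content and log2 length (GENCODE 29, longest transcript), and 158 genes without these values were left out of it. A trial of the test on simulated counts used a fixed spread and few changed genes, unlike these data, so it does not vouch for the p-values given here. Alternatives were other scalings, DESeq2 1.42.0, no filter, only the 4 libraries compared, blocks and leaving out each library, where the lone library of a group is assumed to vary like the other groups. Members and lists were chosen with earlier results of these data known. In each role group the 2 members with the highest mean CPM and the 2 with the smallest adjusted p in SP2509 cells are given in full, with the 3 largest differences each way between siPIR and SP2509, PIR, CDKN1A, MYBL2 and up to 2 genes of each other list. Further members named were chosen after their values were seen.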

Additional observations from a re-analysis of the deposited data

How the results depend on the processing

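The counts of members called stayed within 1.5 times of those reported under other scalings, DESeq2, no filter, a fit of only the 4 libraries compared and blocks, apart from the single rise in SP2509 cells, which became 2 with the 4 libraries alone, the description number block or the GC-length offset. Without 1 library it was 1 to 2, and with the offset and without 1 library 1 to 3. With the offset 7 members rose and 36 fell in siPIR cells, also with the replicate block added. With the offset and without 1 library, which was added after the data were seen, 5 to 8 rose and 27 to 35 fell (31 without untreated replicate 2 and 32 in 3 fits), and 7 to 8 were lower in siPIR than in SP2509 cells. The replicate block left 1 rise and 37 falls in SP2509 cells and 27 rises and 15 falls in siPIR cells. Libraries with the same replicate number did not deviate together (correlation -0.024, -0.038 and 0.081), so replicate numbers were not taken as pairs. For siPIR libraries the description numbers differ from the replicate numbers and were not checked in this way. CCNB1 lost its siPIR call with the replicate block (edgeR adjusted p = 0.0501). Under total counts 8 siPIR rises lost their call, those of BUB1, BUB1B, KIF15, KIF23, CENPF, SPC25, TOP2A and DLGAP5.

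The median of the members in siPIR cells turned from 0.65 to -0.40 with the offset. Signs turned there for CDC25B (1.58), CDKN1A (2.17), BUB1 (-0.40), BUB1B (-0.23), BUB3 (-0.40), KIF11 (-0.45), KIF14 (-0.34), KIF15 (-0.59), KIF18A (-0.73), KIF20B (-0.22) and KIF23 (-0.35). They turned also for CENPE (-0.24), CENPF (-0.73), NDC80 (-0.37), SPC25 (-0.68), NCAPG (-0.28), SMC2 (-0.20), SMC4 (-0.39), TOP2A (-0.90), HMMR (-0.17) and DLGAP5 (-0.87). The cause of the trend with GC content was not tested. With total counts BUB1 (-0.067), BUB1B (-0.041) and CENPA (-0.33) turned in siPIR cells, and AURKA became 0.035 with the RLE size factors and with DESeq2. In SP2509 cells ANLN became -0.18 with total counts and -0.025 with upper-quartile scaling, and MYBL2 0.013 with the offset. CDC20, near 0 in SP2509 cells, was 0.018 with RLE and DESeq2, 0.00907 without a filter, 0.0022 with the 4 libraries alone, 0.15 with the offset, and from -0.11 to 0.11 without 1 library. KIF15 was between -0.29 and 0.16 without 1 library.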

Other observations

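The 2 siPIR libraries differed from each other along the same axis as they differed from the other groups. In 27 of the 28 members below 45% GC replicate 1 was higher than replicate 2, with a median ratio of 1.19, and in 5 of the 18 members at 45% or above, with a median ratio of 0.936. Replicate 1 was also the library with the lower weighted GC content. In SP2509 cells replicate 1 was higher in 24 of the 28 members below 45% GC (median ratio 1.13) and in 9 of the 18 others (median ratio 1.01). The untreated libraries had median ratios of 1.04 and 1.06.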
